A study of Mus musculus with 9 samples.

Results

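Pre-mRNA splicing factors were followed in mouse dendritic cells treated with TSA (trichostatin A) or with butyrate. Both compounds inhibit histone deacetylases, the enzymes that take acetyl groups off histones. The genes were chosen by symbol, as those beginning with Srsf, Hnrnp, Snrp, U2af, Sf3a, Sf3b or Prpf, or with Rbm and a digit. This gave 78 of the 12393 genes tested, in 8 families of 9 Srsf, 18 Hnrnp, 8 Snrp, 3 U2af, 3 Sf3a, 6 Sf3b, 10 Prpf and 21 Rbm genes. The symbols are a wider net than splicing. Among the Rbm genes, Rbm19 and Rbm28 are known for ribosome assembly, Rbm7 and Rbm26 for nuclear RNA decay, and Rbm15 and Rbm15b for RNA methylation.

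RNA was measured on 9 one-colour arrays, 3 each from cells given TSA, cells given butyrate and untreated cells. In all 3 groups the cells were Flt3L-elicited DC, taken from mice 6 to 8 weeks old that bore B.16 tumours engineered to express Flt3L, a growth factor that expands DC, and purified with CD11c beads. The sources used here do not give strain, sex, dose or duration, nor say whether replicates are separate mice or cultures. A p-value here thus reflects only how these samples vary, possibly for technical reasons, and 3 arrays per group limit the precision. Levels are log2 expression values made by the authors with RMA, so a difference of 1 is 2-fold, and levels of different genes are not set against each other. A value after ± is the standard error (SE) of a difference, unless named as SD. A gene was called higher or lower at a Benjamini-Hochberg adjusted p under 0.05 (limma, 12393 genes). Standard errors of the member differences lay between 0.043 and 0.182, and an exact permutation test of 3 arrays against 3 cannot go below a two-sided p of 0.1.

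As background, the spliceosome assembles anew on each intron from small nuclear ribonucleoproteins (snRNPs), whose shared ring is built from Snrp gene products. The U2af heterodimer binds the end of the intron, the Sf3a and Sf3b complexes of the U2 snRNP grip the branch point, and Prpf proteins bring in and remodel the tri-snRNP. SR proteins (Srsf) and hnRNPs then steer which exons are kept, often in opposite senses. In immune cells the same machinery sets the isoforms of receptors and signalling proteins, among them the leukocyte phosphatase CD45, whose exon choice depends on Hnrnpll.

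Arrays within a group correlated with r between 0.9971 and 0.9985 across genes. The 2 sets of added control RNAs did not read alike on all arrays. Hybridization controls averaged 10.38 ± 0.03 on the TSA arrays, 10.78 ± 0.063 on the butyrate arrays and 10.365 ± 0.075 on the untreated arrays, and poly-A controls averaged 7.594 ± 0.12, 7.867 ± 0.071 and 7.581 ± 0.241 in the same order (SD, n = 3). The fits were therefore repeated with each array shifted to equal control levels. On the hybridization control scale the median butyrate difference of all genes moved to -0.331, against 0.085 on the RMA scale, and on the poly-A scale to -0.201. A butyrate change given below is a change relative to the other genes of the array unless a control scale is named. The 3′ minus 5′ difference of beta-actin probes was 0.641 with TSA, 0.682 with butyrate and 0.432 untreated, and its part in the results was not tested.

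Markers of the labelled cell type were measured beside those of other cell types. Itgax (CD11c), the antigen used for purification, averaged 8.25 with TSA, 8.50 with butyrate and 9.24 untreated, and Flt3, the receptor of Flt3L, 10.43, 10.39 and 11.02. Cd74, H2-Aa and H2-Ab1 of the class II pathway averaged 14.24, 14.67 and 14.09 with TSA, 14.30, 14.55 and 13.89 with butyrate, and 14.39, 14.65 and 13.98 untreated. Of 12 dendritic cell markers measured, 0 rose and 7 fell with TSA, and 2 rose and 7 fell with butyrate. The largest fall among them was that of Ccr7, at -2.075 with TSA and -2.009 with butyrate. The 2 butyrate rises were those of Irf8 (0.22) and Irf4 (0.68). All 8 macrophage markers fell with TSA and 7 of 8 with butyrate, and their summed level (log2) was 11.53 to 11.65 with TSA, 11.36 to 11.53 with butyrate and 12.41 to 12.54 untreated. For 5 erythroid genes (4 falls with TSA, 1 rise and 3 falls with butyrate) the sums, in the same order, were 12.11 to 12.16, 12.40 to 12.45 and 12.75 to 12.87. For 9 neutrophil genes (6 falls with TSA, 3 rises and 5 falls with butyrate) they were 14.91 to 14.97, 15.19 to 15.21 and 15.24 to 15.28. For 5 plasmacytoid DC genes, of which 4 fell with TSA and 5 with butyrate, they were 11.71 to 11.76, 11.30 to 11.39 and 12.53 to 12.57. For 7 NK cell genes they were 10.80 to 11.02, 10.15 to 10.23 and 11.60 to 11.69, with 3 falls with TSA, and 1 rise and 2 falls with butyrate. For 7 B cell genes they were 9.50 to 9.63, 9.73 to 9.90 and 10.07 to 10.12, with 4 falls with TSA and 2 with butyrate, and for 7 T cell genes 9.13 to 9.20, 9.31 to 9.34 and 9.32 to 9.44, with 3 and 0 falls. For 7 melanoma genes they were 8.91 on all TSA arrays, 8.92 to 9.01 with butyrate and 9.21 to 9.37 untreated. Of these genes 1 rose and 2 fell with TSA, and 3 rose and 1 fell with butyrate. The gene that fell with butyrate was Mitf, which averaged 7.79 with TSA, 7.69 with butyrate and 8.52 untreated. Such sums mostly follow the brightest genes of a list. On the untreated arrays these were Klrd1 for NK cells, Ccr9 for plasmacytoid DC and Ms4a1 for B cells. With TSA, with butyrate and untreated, Klrd1 averaged 10.45, 9.47 and 11.35, Ccr9 9.94, 9.09 and 11.46, and Ms4a1 8.69, 8.94 and 9.19. The NK cell genes Ncr1, Nkg7 and Eomes were called with neither treatment. All these marker counts stand beside the shares over all genes tested. Those were 26.3% higher and 21.0% lower with TSA, and 33.6% higher and 24.8% lower with butyrate. Of 11 cell cycle genes, 3 rose and 6 fell with TSA, and 4 rose and 5 fell with butyrate. In such bulk samples, fewer cells of a type and less RNA per cell cannot be told apart, and the part of these shifts in the splicing factor values was not tested.

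TSA raised 30 of the 78 splicing factor genes and lowered 20, and 28 were not called, so that 64.1% were called where 47.3% of all genes tested were (26.3% higher and 21.0% lower). Butyrate raised 17 and lowered 33, again 64.1% called, where 58.4% of all genes were (33.6% higher and 24.8% lower). The level of 75 of the 78 members lay above the median of all genes tested. When genes above that median were refitted alone, 73.3% of the 75 members were called with TSA (45.3% higher and 28% lower), against 76.0% of 6196 genes (42.9% higher and 33.0% lower). With butyrate 70.7% were called (26.7% higher and 44.0% lower), against 80.5% (39.9% higher and 40.6% lower). In these 2 comparisons the share called was thus no higher among splicing factors than among genes of that level. The median member difference was 0.054 with TSA and -0.072 with butyrate, and over all genes 0.032 and 0.085. The 2 contrasts share their 3 untreated arrays, so their values are set side by side and their likeness is not tested.

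The direction of the butyrate calls depended on the scale, that of the TSA calls less so. With butyrate, higher genes made up 34.0% of the called members on the RMA scale, 1.52% on the hybridization control scale, 2.63% on the poly-A scale and 48.0% after further quantile normalization. Among all genes called, higher ones made up 57.5%, 9.97%, 18.6% and 56.2% in the same order. Of the 12393 genes, 932 rose and 8417 fell with butyrate on the hybridization control scale, and 828 and 3630 on the poly-A scale. After further quantile normalization 3775 rose and 2946 fell. Family counts on these scales, given below, stand beside these counts. Only 1 of the 17 butyrate rises, Prpf40b, was called higher under all 3 scalings, while 26 of the 33 falls were called lower under all 3. With TSA, 10 of 30 rises and 7 of 20 falls were called the same way under all 3, most losses being on the poly-A scale, where fewer genes passed in all (25.8%).

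**Figure D1:**
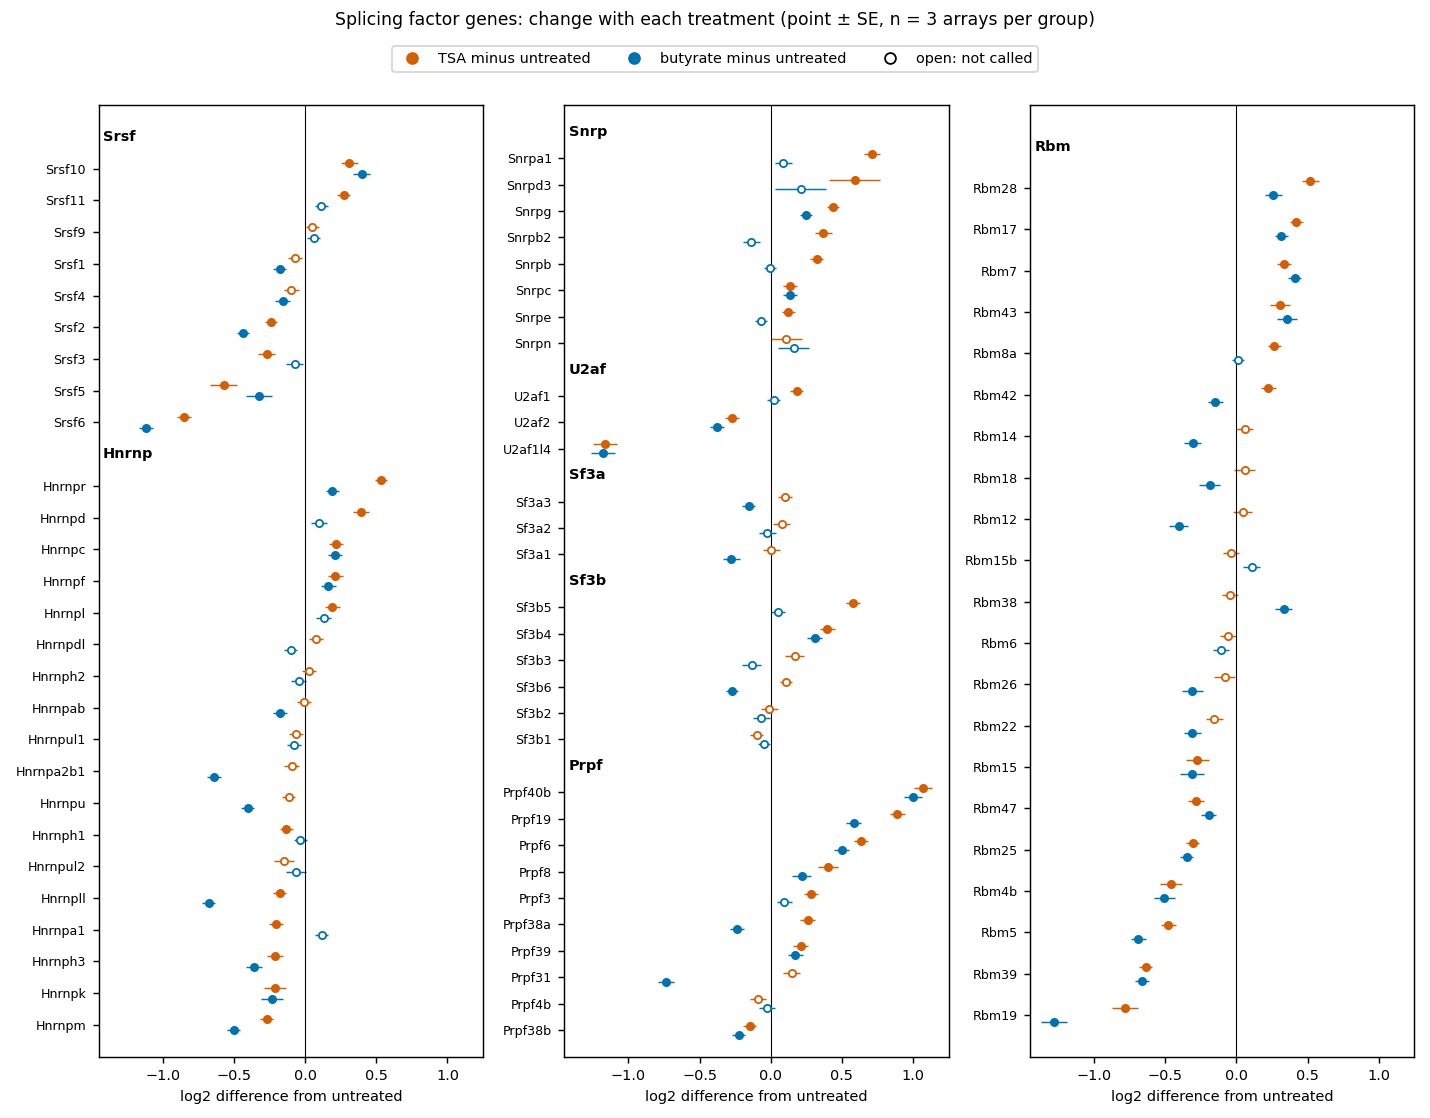
Log2 difference from untreated (x axis) for each of the 78 genes (rows, by family), as point ± SE with n = 3 arrays per group; filled points are called and open points are not. Snrp and Prpf genes lie mostly right of 0 with TSA; Srsf6, U2af1l4 and Rbm19 lie far to the left with both treatments. On the hybridization control scale every butyrate point moves left, and the butyrate rises other than Prpf40b lose their call.

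The SR proteins, which bind exonic enhancers and promote exon inclusion, included more falls than rises on the RMA scale. Of 9 Srsf genes, TSA raised 2 and lowered 4, and butyrate raised 1 and lowered 5. With butyrate 0 rose and 8 fell on the hybridization control scale, 0 and 5 on the poly-A scale, and 3 and 3 after further quantile normalization. Srsf6 moved most of these. Its level was 10.19, 10.08 and 10.13 on the TSA arrays, 9.89, 9.84 and 9.87 on the butyrate arrays and 10.97, 10.98 and 10.999 on the untreated arrays. The 3 groups did not overlap, and Srsf6 fell, with differences of -0.85 ± 0.05 (SE, adjusted p = 1.65e-07) with TSA and -1.12 ± 0.05 (SE, adjusted p = 1.84e-08) with butyrate.

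Srsf5, another SR protein, differed by -0.57 ± 0.09 (SE, adjusted p = 0.000407) with TSA and -0.33 ± 0.09 (SE, adjusted p = 0.0118) with butyrate. Its levels were 11.05, 11.20 and 11.15 with TSA, 11.51, 11.22 and 11.41 with butyrate, and 11.74, 11.53 and 11.84 untreated, so every treated array lay below every untreated one. Srsf2, which also acts in transcription elongation, read 10.84, 10.86 and 10.86 with TSA, 10.66, 10.62 and 10.69 with butyrate, and 11.11, 11.06 and 11.11 untreated. The groups stood in 3 separate tiers, with differences of -0.24 ± 0.04 (SE, adjusted p = 0.000994) with TSA and -0.44 ± 0.04 (SE, adjusted p = 1.12e-05) with butyrate.

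Srsf10 and Srsf11 went the other way with TSA. Srsf10, known as a splicing repressor when dephosphorylated, was higher by 0.31 ± 0.06 (SE, adjusted p = 0.00164) with TSA, and with butyrate by 0.40 ± 0.06 (SE, adjusted p = 0.000276), a rise that was -0.02 on the hybridization control scale. Srsf11 rose with TSA by 0.27 ± 0.05 (SE, adjusted p = 0.000574) and was not called with butyrate at 0.11. On the poly-A scale neither TSA rise was called. Srsf1, a prototype of the family, and Srsf4 were called lower with butyrate (-0.18 and -0.16) and not with TSA (-0.07 and -0.10), but the direct comparison of butyrate with TSA did not pass for either. Srsf3 fell with TSA (-0.27), and Srsf9 was called in neither (0.05 with TSA and 0.06 with butyrate).

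The hnRNPs, RNA-binding proteins that coat nascent transcripts and often silence exons, divided. Of 18 Hnrnp genes, TSA raised 5 and lowered 6 (5 and 4 after further quantile normalization), and butyrate raised 3 and lowered 7. With butyrate 0 rose and 18 fell on the hybridization control scale, 0 and 8 on the poly-A scale, and 5 and 6 after further quantile normalization. Hnrnpr rose most with TSA. It read 10.50, 10.48 and 10.52 with TSA, 10.15, 10.13 and 10.19 with butyrate, and 10, 9.94 and 9.96 untreated, with no overlap between TSA and the other arrays. Its difference was 0.53 ± 0.04 (SE, adjusted p = 3.06e-06) with TSA and 0.19 ± 0.04 (SE, adjusted p = 0.00372) with butyrate, the second turning to -0.22 on the hybridization control scale. Hnrnpd, which binds AU-rich elements and speeds mRNA decay, rose by 0.39 ± 0.06 (SE, adjusted p = 0.00016) with TSA and was not called with butyrate (0.10). The adjoining gene Hnrnpdl was called with neither (0.07 and -0.10).

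Hnrnpc, which binds uridine tracts and in human cells keeps exons born from Alu elements out, was higher by 0.22 ± 0.05 with TSA and 0.21 ± 0.05 with butyrate, but -0.20 with butyrate on the hybridization control scale and -0.07 on the poly-A scale. On the probe sets kept, the largest hnRNP falls called with TSA were those of Hnrnpm (-0.27 ± 0.05, adjusted p = 0.000524) and Hnrnpk (-0.22 ± 0.08, adjusted p = 0.041). Other probe sets of Hnrnpa2b1 fell further, as described with the probe sets. The Hnrnpm call was lost on the poly-A scale (-0.282). For Hnrnpk the call was lost on the hybridization control scale (-0.23), the poly-A scale (-0.228) and after further quantile normalization (-0.132). The Hnrnpk call was also lost in 7 of the 9 fits that left out 1 array, at differences between -0.241 and -0.149, and held without untreated replicate 2 or TSA replicate 3.

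Hnrnpa2b1 and Hnrnpll were lower with butyrate than with TSA, by the direct comparison (-0.55 ± 0.05, adjusted p = 4.46e-05 and -0.50 ± 0.05, adjusted p = 5.41e-05), although other probe sets of Hnrnpa2b1 gave another reading, described with the probe sets. Hnrnpa2b1, which also sorts RNA into granules and exosomes, read 12.47, 12.46 and 12.45 with TSA, 11.91, 11.97 and 11.87 with butyrate, and 12.63, 12.51 and 12.53 untreated. TSA arrays overlapped no untreated array, yet the TSA difference of -0.10 ± 0.05 was not called (adjusted p = 0.157), while butyrate lay far below at -0.64 ± 0.05 (SE, adjusted p = 1.74e-06). Hnrnpll, the CD45 exon silencer, read 9.58, 9.53 and 9.53 with TSA, 9.01, 9.09 and 9.04 with butyrate, and 9.68, 9.72 and 9.78 untreated. It fell by 0.18 with TSA (SE 0.05, adjusted p = 0.00996) and by 0.68 with butyrate (adjusted p = 7.61e-07).

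Most Snrp genes rose with TSA, and 5 of the 8 were lower with butyrate than with TSA in the direct comparison. TSA raised 7 of 8 and lowered 0, with a family median of 0.345, and the count was 5 on the hybridization control scale and 3 on the poly-A scale. Butyrate raised 2 and lowered 0, with a median of 0.112, against 0 and 6 on the hybridization control scale, 0 and 1 on the poly-A scale, and 3 and 0 after further quantile normalization. Snrpa1, a protein of the U2 snRNP, read 9.65, 9.72 and 9.81 with TSA, 9.11, 9.08 and 9.11 with butyrate, and 9.05, 8.93 and 9.07 untreated. TSA stood apart at 0.71 ± 0.06 (SE, adjusted p = 2.63e-06), and butyrate did not pass at 0.09 ± 0.06 (SE, adjusted p = 0.213). Snrpg, a subunit of the Sm ring, was higher by 0.44 ± 0.04 (SE, adjusted p = 1.03e-05) with TSA and 0.25 ± 0.04 (SE, adjusted p = 0.000544) with butyrate, where butyrate gave -0.17 on the hybridization control scale.

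Snrpc, a U1 snRNP protein, was higher by 0.14 in both treatments (SE 0.05, adjusted p = 0.0417 with TSA and 0.0348 with butyrate). The TSA call was lost on the hybridization control scale (0.121) and the poly-A scale (0.123), and was not kept in every leave-out fit. With butyrate the sign turned on the control scales (-0.28 and -0.15), and the call was lost without untreated replicate 1 (0.128) or 2 (0.123), TSA replicate 2 (0.136), or butyrate replicate 1 (0.128) or 2 (0.109). The remaining TSA rises were those of Snrpb, Snrpb2 and Snrpe, also shared Sm or U2 proteins, and of Snrpd3. Snrpn, an imprinted gene best known in neurons, was not called.

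Snrpd3, an Sm ring subunit, rests on uneven data. It read 9.88, 9.71 and 10.06 with TSA, 9.73, 9.39 and 9.39 with butyrate, and 9.76, 9.03 and 9.09 untreated, with untreated replicate 1 among the TSA values. Its TSA difference of 0.59 ± 0.18 (SE, adjusted p = 0.0215) was not called without untreated replicate 2 (0.456), untreated replicate 3 (0.486), TSA replicate 1 (0.591) or TSA replicate 3 (0.499), and became 0.821 without untreated replicate 1. The mean of its 3 probe sets gave -0.032.

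In the U2af family 2 genes fell in both treatments. U2af2, the large subunit that contacts the polypyrimidine tract, fell in both, with differences of -0.27 ± 0.05 (SE, adjusted p = 0.000879) with TSA and -0.38 ± 0.05 (SE, adjusted p = 7.16e-05) with butyrate. U2af1, its small partner that reads the terminal AG, was higher with TSA by 0.18 ± 0.05 (SE, adjusted p = 0.00706) and not called with butyrate at 0.02 ± 0.05 (SE, adjusted p = 0.717). On either control scale the TSA rise was not called, and the butyrate difference was -0.39 on the hybridization control scale.

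U2af1l4, a shorter relative that can take the place of U2af1, had the largest TSA fall of all 78 genes. It read 7.28, 7.30 and 7.23 on the TSA arrays, 7.13, 7.42 and 7.23 on the butyrate arrays and 8.29, 8.49 and 8.53 on the untreated arrays. All treated arrays were below all untreated arrays, with differences of -1.17 ± 0.08 (SE, adjusted p = 1.07e-06) with TSA and -1.18 ± 0.08 (SE, adjusted p = 7.76e-07) with butyrate. Direct comparison of butyrate with TSA gave -0.01 ± 0.08, which did not pass (adjusted p = 0.915).

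The 3 Sf3a genes, which encode a complex that helps seat the U2 snRNP, did not pass with TSA. Sf3a1 was at 0.004 ± 0.06, Sf3a2 at 0.08 ± 0.06 and Sf3a3 at 0.10 ± 0.05. With butyrate Sf3a1 fell (-0.28 ± 0.06, adjusted p = 0.00219), as did Sf3a3 (-0.16 ± 0.05, adjusted p = 0.0163), and Sf3a2 was at -0.02 ± 0.06. Sf3a2 was at -0.44 with butyrate on the hybridization control scale and called lower, as were both other Sf3a genes. Without butyrate replicate 2 the Sf3a3 fall was -0.139 and no longer called.

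Among the 6 Sf3b genes, 2 rose with TSA. Sf3b5 read 10.65, 10.61 and 10.56 with TSA, 10.10, 10.02 and 10.11 with butyrate, and 10.01, 10.002 and 10.06 untreated, with every TSA array above all others. TSA differed from untreated by 0.58 ± 0.05 (SE, adjusted p = 3.37e-06), and butyrate by 0.05 ± 0.05 (SE, adjusted p = 0.395). The second of the 2 probe sets of Sf3b5 was not called with TSA (0.09), nor for butyrate minus TSA (0.08). Sf3b4, an RNA-binding subunit that lies near the branch point, rose by 0.40 ± 0.05 (SE, adjusted p = 9.24e-05) with TSA and by 0.31 ± 0.05 (SE, adjusted p = 0.000502) with butyrate, the last being -0.11 on the hybridization control scale.

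Sf3b6, the subunit that touches the branch point adenosine, fell with butyrate, at -0.27 ± 0.04 (SE, adjusted p = 0.000335), and was at 0.11 ± 0.04 with TSA, which did not pass. Sf3b1, the scaffold that is often mutated in myeloid disease, was at -0.10 ± 0.04 with TSA and -0.05 ± 0.04 with butyrate, called in neither. Sf3b2 was at -0.01 ± 0.06 and -0.07 ± 0.06, and Sf3b3 at 0.17 ± 0.07 and -0.13 ± 0.07, again without a call. Yet 3 of the 4 probe sets of Sf3b2 were called lower with butyrate. The mean of its probe sets was also called lower (-0.219, limma adjusted p = 0.00344). On the hybridization control scale Sf3b1 (-0.463), Sf3b2 (-0.481) and Sf3b3 (-0.548) were called lower with butyrate, and on the poly-A scale Sf3b3 was (-0.418). Sf3b3 was called higher with TSA without untreated replicate 3 (0.206) and lower with butyrate without untreated replicate 1 (-0.197).

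**Figure D2:**
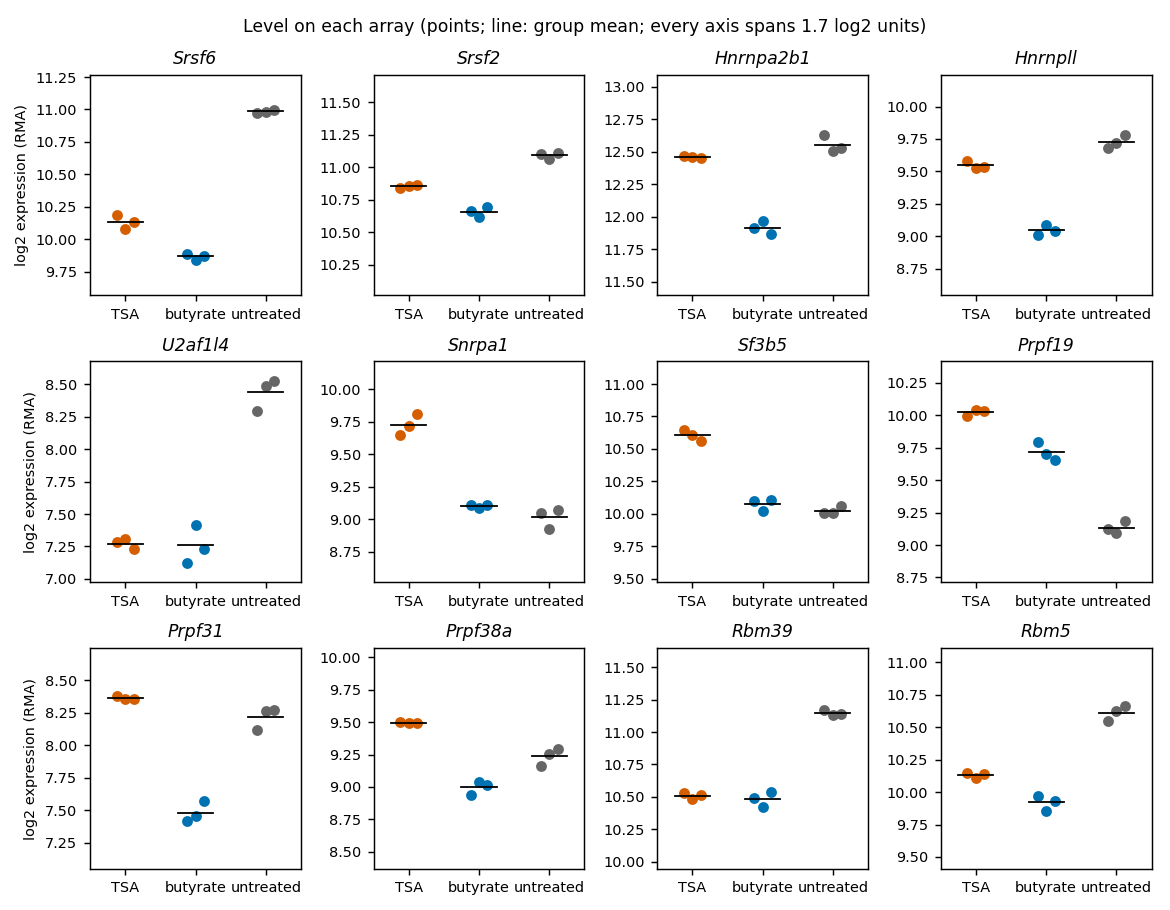
Log2 level on each of the 9 arrays (points, y axis) for 12 genes in TSA, butyrate and untreated groups (x axis); lines are group means of 3 arrays, and each axis spans 1.7 log2 units but starts at its own level. Srsf6, U2af1l4, Rbm39 and Rbm5 sit lower in both treatments, Snrpa1 and Sf3b5 are higher with TSA than in both other groups, and Prpf31 and Hnrnpa2b1 lower with butyrate than in both other groups. Points are those of the probe set with the highest mean, and the second Sf3b5 probe set was called with neither treatment.

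Prpf genes, named after yeast pre-mRNA processing mutants, rose more than they fell with TSA (7 higher, 1 lower of 10, median 0.271). With butyrate 5 rose and 3 fell on the RMA scale, but 1 rose and 6 fell on the hybridization control scale, 1 and 3 on the poly-A scale, and 6 and 3 after further quantile normalization. Prpf40b, a relative of a yeast U1 snRNP protein that bridges the intron ends, had the largest rise. It read 7.67, 7.70 and 7.63 on the TSA arrays, 7.67, 7.56 and 7.56 on the butyrate arrays and 6.71, 6.50 and 6.58 on the untreated arrays. Treated arrays were about 2-fold above untreated ones, by 1.07 ± 0.06 (SE, adjusted p = 2.74e-07) with TSA and 1.0 ± 0.06 (SE, adjusted p = 3.24e-07) with butyrate, where 0.59 remained on the hybridization control scale.

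Prpf19, a ubiquitin ligase at the heart of the complex that activates the spliceosome, read 9.995, 10.04 and 10.03 with TSA, 9.80, 9.70 and 9.65 with butyrate, and 9.12, 9.09 and 9.18 untreated. The groups formed 3 tiers, at 0.89 ± 0.05 (SE, adjusted p = 2.9e-07) with TSA and 0.58 ± 0.05 (SE, adjusted p = 4.74e-06) with butyrate, the butyrate rise being 0.17 and not called on the hybridization control scale. Prpf6, which joins the parts of the tri-snRNP, was higher by 0.63 ± 0.05 and 0.50 ± 0.05, and Prpf8, the catalytic core scaffold, by 0.40 ± 0.07 and 0.22 ± 0.07, with TSA and butyrate in that order. On the hybridization control scale the butyrate values were 0.08 for Prpf6 and -0.20 for Prpf8.

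Prpf31 separated the treatments. It encodes a tri-snRNP protein mutated in retinitis pigmentosa, and its level was 8.38, 8.35 and 8.36 on the TSA arrays, 7.42, 7.46 and 7.57 on the butyrate arrays and 8.12, 8.26 and 8.27 on the untreated arrays. Butyrate arrays lay below all others, at -0.74 ± 0.06 (SE, adjusted p = 2.02e-06) relative to untreated, and TSA was at 0.15 ± 0.06 (SE, adjusted p = 0.0674), which did not pass. The second of the 2 probe sets of Prpf31 was not called with butyrate (-0.21), but was called lower relative to TSA (-0.43). Prpf38a, part of the complex that precedes spliceosome activation, read 9.50, 9.50 and 9.49 with TSA, 8.94, 9.04 and 9.01 with butyrate, and 9.16, 9.25 and 9.29 untreated. It was called in opposite directions, higher with TSA (0.26 ± 0.05, adjusted p = 0.00162) and lower with butyrate (-0.24 ± 0.05, adjusted p = 0.0024). The TSA rise of Prpf38a was not called on the poly-A scale (0.246). Its relative Prpf38b was lower in both, at -0.15 ± 0.05 (SE, adjusted p = 0.0214) with TSA and -0.23 ± 0.05 (SE, adjusted p = 0.00176) with butyrate, and the TSA fall lost its call without untreated replicate 3 (-0.144), TSA replicate 1 (-0.126) or TSA replicate 2 (-0.147).

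The 21 Rbm genes, united by an RNA recognition motif and diverse in task, were lowered more than raised by butyrate. TSA raised 6 and lowered 7, and butyrate raised 5 and lowered 13, with medians of -0.045 and -0.195. With butyrate 0 rose and 16 fell on the hybridization control scale, 0 and 14 on the poly-A scale, and 6 and 10 after further quantile normalization. Rbm39, an SR-like protein related to U2af2 and degraded by aryl sulfonamide drugs, read 10.53, 10.49 and 10.51 on the TSA arrays, 10.49, 10.42 and 10.54 on the butyrate arrays and 11.17, 11.13 and 11.14 on the untreated arrays. Treated arrays lay together below all untreated arrays, with differences of -0.64 ± 0.05 (SE, adjusted p = 1.35e-06) with TSA and -0.66 ± 0.05 (SE, adjusted p = 7.82e-07) with butyrate. Rbm5, which shapes splicing of the death receptor Fas, read 10.15, 10.11 and 10.14 with TSA, 9.97, 9.85 and 9.94 with butyrate, and 10.55, 10.63 and 10.66 untreated. It differed by -0.48 ± 0.05 (SE, adjusted p = 2.3e-05) with TSA and -0.69 ± 0.05 (SE, adjusted p = 1.22e-06) with butyrate, while its chromosomal neighbour and relative Rbm6 was not called (-0.06 and -0.11).

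Rbm19, the ribosome assembly factor, had the largest butyrate fall of the 78 genes. It read 5.77, 5.89 and 5.83 on the TSA arrays, 5.41, 5.47 and 5.10 on the butyrate arrays and 6.54, 6.67 and 6.62 on the untreated arrays. The 3 groups did not overlap, and the differences were -0.78 ± 0.09 (SE, adjusted p = 3.88e-05) with TSA and -1.29 ± 0.09 (SE, adjusted p = 7.88e-07) with butyrate. Rbm28, of the same pathway, went the other way, by 0.52 ± 0.06 (SE, adjusted p = 4.88e-05) with TSA and 0.26 ± 0.06 (SE, adjusted p = 0.00471) with butyrate, the second -0.16 on the hybridization control scale.

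Rbm17, which helps recognise the end of the intron, was higher by 0.42 ± 0.05 (SE, adjusted p = 2.38e-05) with TSA, and by 0.31 ± 0.05 with butyrate, where the hybridization control scale gave -0.10. Rbm7, an RNA-binding subunit of a complex that feeds the nuclear exosome, and Rbm43 were higher with butyrate by 0.41 ± 0.05 and 0.36 ± 0.07, which became -0.01 and -0.06 on that scale. Rbm42 was called in opposite directions, at 0.22 ± 0.05 (SE, adjusted p = 0.005) with TSA and -0.15 ± 0.05 (SE, adjusted p = 0.0319) with butyrate. The TSA call was lost on the hybridization control scale (0.208), on the poly-A scale (0.210) and with the mean of its probe sets (0.089). The butyrate call was lost after further quantile normalization (-0.087), with the mean of its probe sets (-0.093), and without untreated replicate 2 (-0.140), untreated replicate 3 (-0.132), butyrate replicate 2 (-0.124) or butyrate replicate 3 (-0.148). Outside the largest changes with TSA, 16 other Rbm genes held 3 rises (0.27 to 0.33) and 5 falls (-0.48 to -0.27). Outside those with butyrate, a partly different 16 held 3 rises (0.26 to 0.33 on the RMA scale, none called on a control scale) and 10 falls (-0.66 to -0.19).

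**Figure D3:**
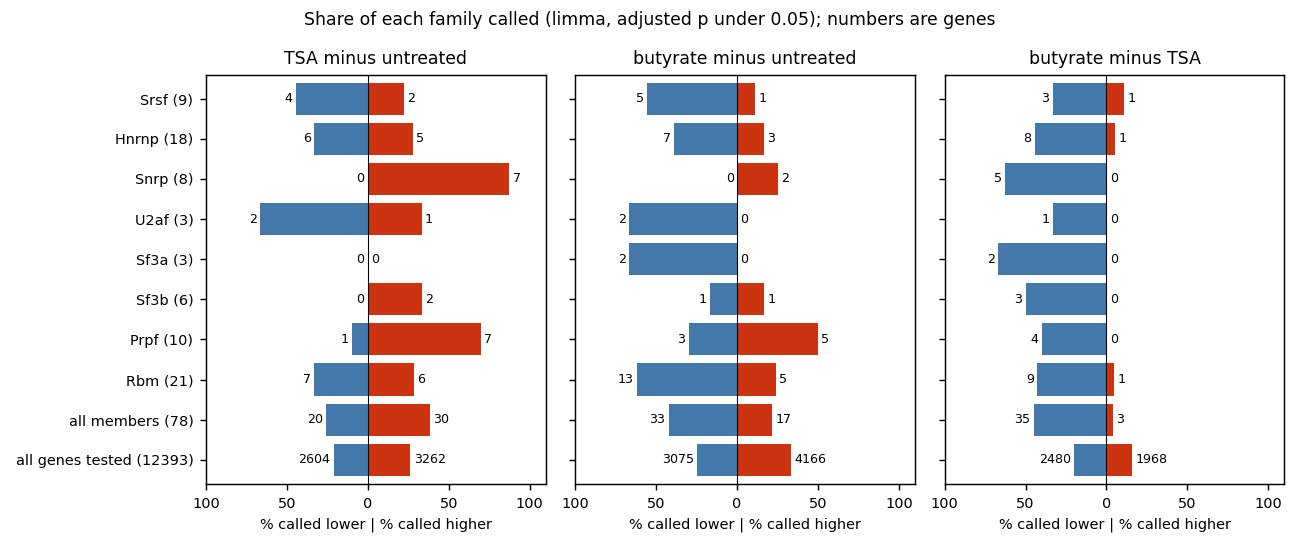
Percentage of each family called lower (left of 0) and higher (right of 0) in 3 comparisons (limma, adjusted p under 0.05), with the number of genes beside each bar and all 12393 genes tested in the bottom row. The Snrp bar reaches 7 of 8 higher with TSA, and lower calls outnumber higher ones in every family for butyrate minus TSA. On the hybridization control scale the butyrate minus untreated panel would hold 1 higher member and 65 lower. Of all genes tested, 932 were higher and 8417 lower on that scale.

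Butyrate and TSA were then compared directly. Relative to TSA, butyrate raised 3 of the 78 genes and lowered 35, so that 48.7% were called. Of all genes tested 35.9% were called, 15.9% higher and 20.0% lower. The median difference was -0.143 for the members and 0.033 for all genes. Among genes above the median level 62.7% of the members were called, against 59.5% of all genes of that level, with 54.7% of the members lower, against 38.8%, and 8.0% higher, against 20.7%. Under the 3 scalings higher genes made up 0%, 0% and 13.9% of the called members, against 7.89% on the RMA scale, and 31 of the 35 falls were called under all 3. Among all genes called, the shares were 0.917%, 1.88% and 48.3%, against 44.2% on the RMA scale.

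Every family had more falls than rises in this comparison. The 4 largest falls were in Prpf31 (-0.88 ± 0.06, adjusted p = 1.05e-05), Snrpa1 (-0.62 ± 0.06, adjusted p = 4.38e-05), Hnrnpa2b1 (-0.55 ± 0.05, adjusted p = 4.46e-05) and Sf3b5 (-0.53 ± 0.05, adjusted p = 4.33e-05). In each of the 4, picked by the size of the fall, every butyrate array lay below every TSA array. The same held for 45 of the 78 members and 3196 of the 12393 genes tested. For Hnrnpa2b1 and Sf3b5 this fall was called on only 1 of their probe sets. Family medians were -0.26 for Snrp, -0.255 for Sf3a and -0.195 for Sf3b, and closest to 0 for Srsf at -0.058.

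The 3 rises were those of Rbm38, Hnrnpa1 and Srsf3, and none was called higher on a control scale. Rbm38, an RNA-binding target of p53 that steadies mRNAs, read 9.29, 9.24 and 9.36 with butyrate, 8.98, 8.86 and 8.93 with TSA, and 8.89, 9.04 and 8.96 untreated. It was 0.38 ± 0.06 (SE, adjusted p = 0.00084) higher with butyrate than with TSA, and -0.02 on the hybridization control scale. Hnrnpa1, the best studied exon silencer, differed by 0.32 ± 0.05 (SE, adjusted p = 0.000786), and by -0.08 on that scale. Only 1 of its 3 probe sets was called here, and their mean did not pass (0.104, adjusted p = 0.244). Srsf3, an SR protein that also aids mRNA export, differed by 0.20 ± 0.06 (SE, adjusted p = 0.0246), and by -0.21 on the hybridization control scale. The Srsf3 call was lost without TSA replicate 1 (0.146), butyrate replicate 1 (0.200) or butyrate replicate 2 (0.173).

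**Figure D4:**
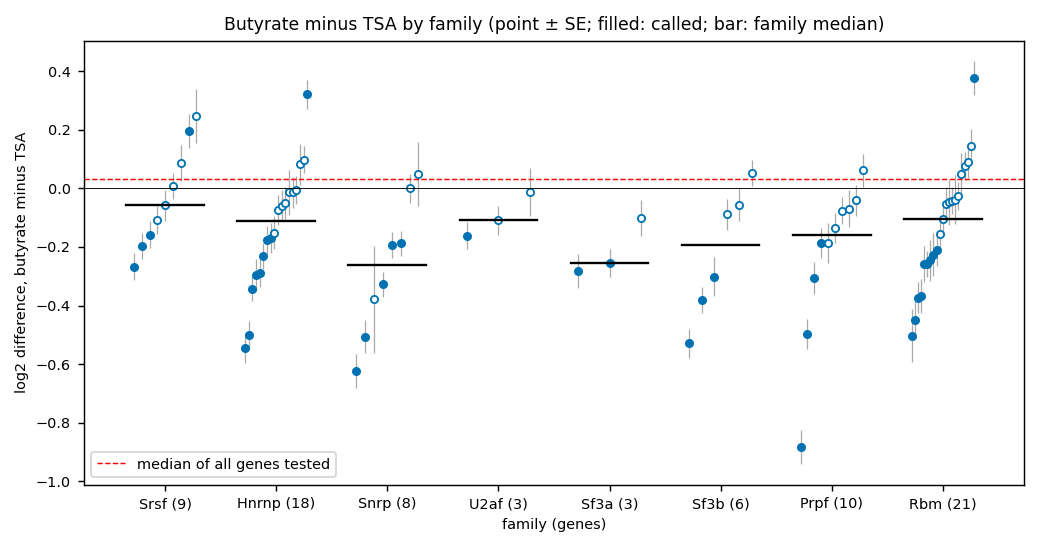
Log2 difference of butyrate minus TSA (y axis) for each gene, grouped by family (x axis), as point ± SE with n = 3 arrays per group; filled points are called, bars are family medians and the dashed line is the median of all genes, 0.033. All 8 family medians lie below it, and the 3 called rises (Rbm38, Hnrnpa1 and Srsf3) fall below 0 on the hybridization control scale.

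Promoter sequences are shown for the genes that moved furthest in both treatments, 3 that fell and 3 that rose, among those with 1 annotated start. Of the 78 genes, 70 matched the RefSeq promoter table (GRCm38.p6), with 94 windows of 250 bases before to 50 after a start. Capitals mark GC boxes (GGGCGG), ETS motifs (CCGGAAG) and E-boxes (CACGTG) on either strand, written as they read on the gene's strand. The fallers are U2af1l4 (chr7:30563090-30563389, plus strand), Rbm19 (chr5:120116263-120116562, plus) and Srsf6 (chr2:162931258-162931557, plus). The risers are Prpf6 (chr2:181601069-181601368, plus), Rbm28 (chr6:29164675-29164974, minus) and Rbm7 (chr9:48495281-48495580, minus), with the butyrate rises of Rbm28 and Rbm7 below 0 on the hybridization control scale.
U2af1l4: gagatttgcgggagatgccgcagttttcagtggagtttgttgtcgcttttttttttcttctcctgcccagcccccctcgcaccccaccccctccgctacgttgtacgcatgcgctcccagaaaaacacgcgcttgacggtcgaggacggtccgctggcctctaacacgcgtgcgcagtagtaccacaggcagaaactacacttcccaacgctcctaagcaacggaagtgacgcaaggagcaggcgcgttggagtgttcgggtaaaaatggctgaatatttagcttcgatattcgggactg
Rbm19: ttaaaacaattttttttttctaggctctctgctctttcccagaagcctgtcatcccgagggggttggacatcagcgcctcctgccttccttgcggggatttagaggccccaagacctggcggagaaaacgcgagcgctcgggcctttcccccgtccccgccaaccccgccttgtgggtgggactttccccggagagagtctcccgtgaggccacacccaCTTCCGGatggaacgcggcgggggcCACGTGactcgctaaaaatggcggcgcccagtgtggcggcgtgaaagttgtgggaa
Srsf6: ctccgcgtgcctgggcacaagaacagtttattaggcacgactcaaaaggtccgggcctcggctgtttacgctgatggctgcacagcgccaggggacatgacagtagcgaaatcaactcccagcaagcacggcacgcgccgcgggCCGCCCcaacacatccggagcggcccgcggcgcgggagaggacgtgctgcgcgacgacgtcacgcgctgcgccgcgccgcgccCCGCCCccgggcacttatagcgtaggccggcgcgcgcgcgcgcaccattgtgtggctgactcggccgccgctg
Prpf6: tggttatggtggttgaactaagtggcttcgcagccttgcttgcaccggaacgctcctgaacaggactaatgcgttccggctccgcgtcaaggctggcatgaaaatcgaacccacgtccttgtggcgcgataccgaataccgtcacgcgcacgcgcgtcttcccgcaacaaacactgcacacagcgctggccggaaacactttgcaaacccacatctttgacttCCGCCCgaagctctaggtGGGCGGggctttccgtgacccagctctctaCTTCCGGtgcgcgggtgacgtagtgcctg
Rbm28: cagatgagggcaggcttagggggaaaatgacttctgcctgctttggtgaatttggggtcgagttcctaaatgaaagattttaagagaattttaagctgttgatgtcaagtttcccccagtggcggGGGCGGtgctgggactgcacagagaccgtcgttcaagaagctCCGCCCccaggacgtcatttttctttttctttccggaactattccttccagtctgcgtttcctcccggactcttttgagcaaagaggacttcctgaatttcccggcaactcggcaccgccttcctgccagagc
Rbm7: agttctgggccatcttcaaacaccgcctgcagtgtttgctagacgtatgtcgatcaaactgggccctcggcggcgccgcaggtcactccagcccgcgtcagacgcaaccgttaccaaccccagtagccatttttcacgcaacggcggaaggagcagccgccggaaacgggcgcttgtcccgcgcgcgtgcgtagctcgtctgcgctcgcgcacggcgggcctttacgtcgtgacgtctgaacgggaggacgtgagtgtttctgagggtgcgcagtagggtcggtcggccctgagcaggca

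Neither direction had a motif in all 3 of its windows. Srsf6, Prpf6 and Rbm28 hold 2 GC boxes each, Rbm19 an E-box and an ETS motif, Prpf6 an ETS motif as well, and U2af1l4 and Rbm7 none of the motifs searched. Over the 94 member windows, 28.7% held the ETS motif, against 14.0% of 12559 windows of genes tested and 8.86% of all 32851 windows. GC boxes were in 59.6%, against 55.4% and 35.7%. CCAAT was in 47.9%, against 37.1% and 37.4%, and the E-box in 11.7%, against 9.11% and 7.15%. TATAAA was in 8.51%, against 9.80% and 13.6%. The CRE motif (TGACGTCA) and the NRF1 motif were each in 1.06%, against 2.52% and 1.60% of the windows of genes tested. Median GC content was 60.0%, against 59.0% for genes tested, and median CpG count was 24, against 17. The motifs were matched as letters, alternative windows of a gene can overlap, and none of this was tested.

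Many members were read by several probe sets, which can lie in different parts of a transcript or detect different isoforms. The 78 genes had 192 probe sets, with several for 49 genes and 1 for 29, and values above come from the one with the highest mean. Of all 20380 probe sets with 1 symbol, 24.1% rose and 19.8% fell with TSA, 30.4% rose and 23.8% fell with butyrate, and 12.5% rose and 17.7% fell in butyrate relative to TSA. Rbm39 had the most, 9, and every one fell with each treatment, with differences of -1.19 to -0.48 with TSA and -1.15 to -0.66 with butyrate. The 3 probe sets of Prpf19 all rose, at 0.87 to 0.95 with TSA and 0.51 to 0.63 with butyrate. Of the 3 for Srsf6, 2 fell in each treatment and 1 was not called, at -0.13 with TSA and -0.16 with butyrate.

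Other probe sets gave a different reading for some genes. The probe set that represents Hnrnpa2b1 was the 1 of 4 not called with TSA, and the other 3 fell, with differences between -0.84 and -0.45, so the butyrate minus TSA fall of this gene was called on 1 probe set of 4. For Srsf1, 2 of 6 probe sets fell with TSA and 4 of 6 with butyrate. In 3 of the 49 genes with several probe sets, Hnrnpa1, Hnrnpab and Snrpd3, probe sets were called in opposite directions with TSA, and likewise with butyrate. That is 6.12%, where 0.908% of the 4956 genes with several probe sets did so with TSA and 3.73% with butyrate. For Hnrnpab, 1 of 7 probe sets rose (0.20 with TSA and 0.72 with butyrate) while 5 fell with butyrate. For Snrpd3, 2 probe sets rose with TSA and the third fell by 0.95 in both treatments. Probe sets named _s_at represent 6 members and those named _x_at 5, including Hnrnpab, and they can read more than 1 transcript or gene.

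**Figure D5:**
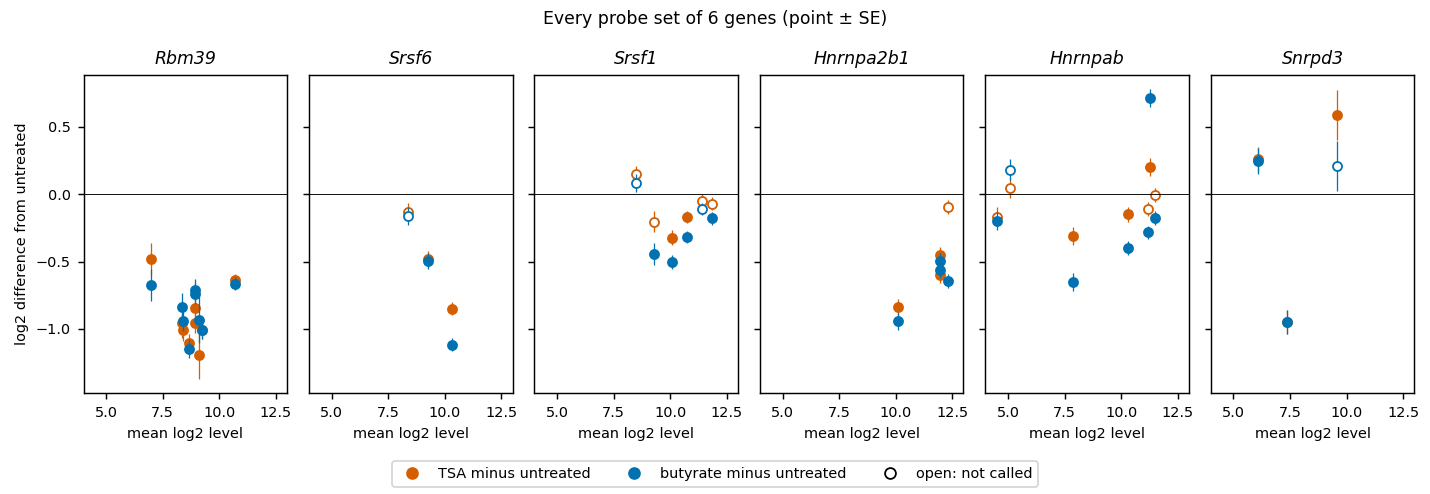
Log2 difference from untreated (y axis) against mean log2 level (x axis) for every probe set of 6 genes, as point ± SE with n = 3 arrays per group; filled points are called. All 9 Rbm39 points per treatment lie below 0, while Hnrnpab and Snrpd3 have called points on both sides.

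Other genes of the pathway moved in both directions. Of 50 further spliceosome components measured, TSA raised 20 and lowered 6, and butyrate raised 12 and lowered 20. Over all genes tested the shares were 26.3% higher and 21.0% lower with TSA, and 33.6% higher and 24.8% lower with butyrate, and the counts of the smaller lists that follow stand beside these same shares. Bcas2, a partner of Prpf19, read 10.16, 10.20 and 10.22 with TSA, 10.12, 9.98 and 10.03 with butyrate, and 9.54, 9.58 and 9.59 untreated, a difference of 0.63 ± 0.05 (SE, adjusted p = 2.73e-06) with TSA. Puf60, which works beside U2af2, fell, at -0.65 ± 0.06 (SE, adjusted p = 8.63e-06) with TSA. With butyrate the largest rise was that of the helicase Dhx16 (0.64 ± 0.06, adjusted p = 3.23e-06, but 0.353 and not called on the poly-A scale) and the largest fall that of Lsm3, a subunit of the U6 snRNP ring (-0.94 ± 0.04, adjusted p = 4.07e-08).

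Of 34 other splicing regulators, 13 rose and 9 fell with TSA, and 8 rose and 15 fell with butyrate. Ptbp1, the polypyrimidine tract repressor, was higher by 0.53 ± 0.07 with TSA and 0.46 ± 0.07 with butyrate, and its neuronal paralogue Ptbp2 was lower, at -0.63 ± 0.06 and -0.89 ± 0.06. On the hybridization control scale the Ptbp1 difference with butyrate was 0.049 and not called. Ptbp1 levels were 10.04, 10.12 and 10.23 with TSA, 10.05, 9.99 and 10.14 with butyrate, and 9.49, 9.59 and 9.71 untreated, and those of Ptbp2 were 8.61, 8.55 and 8.56 with TSA, 8.38, 8.22 and 8.34 with butyrate, and 9.17, 9.27 and 9.16 untreated. Treated and untreated arrays did not overlap for either gene.

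The 11 kinases and carriers of SR proteins also divided, with 5 higher and 4 lower in TSA, and 5 higher and 3 lower in butyrate. Srpk2, which phosphorylates SR proteins in the cytoplasm, was higher by 0.72 ± 0.12 and 0.78 ± 0.12. The nuclear SR kinases Clk1 and Clk4 were lower, Clk1 at -0.54 ± 0.04 and Clk4 at -0.44 ± 0.07 with TSA, and at -0.49 ± 0.04 and -0.70 ± 0.07 with butyrate. Clk2 and Clk3 did not share this pattern. Clk3 fell with TSA (-0.33) and was not called with butyrate (-0.077). Clk2 was not called with TSA (0.018) and rose with butyrate (0.175). Of 11 genes for snRNP assembly, 6 rose and 1 fell with TSA, and 5 rose and 4 fell with butyrate. Clns1a, which delivers Sm proteins to the assembly machine, rose by 0.80 ± 0.05 (SE, adjusted p = 3.29e-07) with TSA, and Gemin7 fell, at -0.18 ± 0.05 (SE, adjusted p = 0.0149), a call lost without TSA replicate 1 (-0.152). The Gemin7 fall was also not called on the hybridization control scale (-0.193) and the poly-A scale (-0.191). With butyrate Ddx20 rose by 0.72 ± 0.05 (SE, adjusted p = 1.25e-06) and Wdr77, a partner of the methylase Prmt5, fell, at -0.66 ± 0.08 (SE, adjusted p = 4.15e-05).

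Of 5 genes of the exon junction complex and the decay that follows it, 1 rose and 1 fell with each treatment. With TSA these were Upf2 (0.21 ± 0.05, adjusted p = 0.00764) and Smg5 (-0.31 ± 0.05, adjusted p = 0.000742), and with butyrate Casc3 (0.25 ± 0.05, adjusted p = 0.00173) and Upf1 (-0.22 ± 0.06, adjusted p = 0.0114). The Upf2 call was lost on the hybridization control scale (0.194) and the poly-A scale (0.196). The Smg5 call was lost on the poly-A scale (-0.319) and with the mean of its probe sets (-0.128). The Casc3 rise was -0.162 on the hybridization control scale. Rbm8a, the junction complex core subunit counted among the Rbm genes, rose with TSA (0.27 ± 0.04) and was not called with butyrate (0.01 ± 0.04).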

How the data were processed

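The deposited table holds log2 expression values of 22690 probe sets on 9 arrays, which the authors computed by RMA according to the submitters' processing notes. This method combines background correction, quantile normalization and median polish. Its program and version, and the definition of probe sets used, are not given in the material used here. Probe sets were named by the platform annotation: 64 were controls, 20380 had 1 symbol, 691 several and 1555 were not named here. Gene IDs of 20351 matched the reference table, which changed 0 symbols. For each of 12393 genes the probe set of highest mean over the arrays was kept. A model with 1 mean per group was fitted with limma 3.58.1 in R 4.3.3 (lmFit, eBayes, 6 residual and 3.9 prior degrees of freedom) and tested on simulated data. P-values were adjusted by Benjamini-Hochberg over all 12393 genes per comparison. No pair of arrays held identical values.

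Alternatives were both control scales, further quantile normalization, a replicate block, means of probe sets, genes above the median level, an intensity trend, the 6 arrays compared, and leaving out each array. The rule for genes given with values takes all U2af, Sf3a and Sf3b genes, the 2 largest called rises and falls of each other family and treatment, the 4 largest of butyrate minus TSA, genes called in opposite directions, and the largest rise and fall of each pathway list. Other genes named in the text (such as Rbm6, Rbm8a and Prpf6) and the probe set examples were chosen after their values were seen. The members and lists were chosen with earlier results of these data known.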

Additional observations from a re-analysis of the deposited data

How the results depend on the processing

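The direction of butyrate results rested most on scale. On the hybridization control scale butyrate raised 1 member and lowered 65 (median -0.487), and relative to TSA raised 0 and lowered 75 (median -0.543). Of all 12393 genes tested, butyrate raised 932 and lowered 8417 on that scale (median -0.331). Relative to TSA it raised 93 and lowered 10047 (median -0.367). On the poly-A scale TSA raised 10 and lowered 7, butyrate raised 1 (median -0.357), and relative to TSA raised 0 (median -0.415). Further quantile normalization gave medians of -0.018 for butyrate and -0.097 relative to TSA, with 5 rises there. The mean of probe sets gave a TSA median of 0.025. Relative to TSA, 6 members rose among genes above the median level and 5 with an intensity trend. Of the 30 members above 0 with butyrate, 27 turned negative on the hybridization control scale and 21 on the poly-A scale (14 and 8 of the 17 called rises). Among genes that the naming rule picked for the same comparison, those on the hybridization control scale were U2af1 (-0.394), Sf3b4 (-0.107), Sf3b5 (-0.364), Srsf10 (-0.018), Hnrnpc (-0.202), Hnrnpr (-0.224), Snrpg (-0.166), Snrpc (-0.279), Rbm7 (-0.006), Rbm43 (-0.060) and Casc3 (-0.162), and relative to TSA Rbm38 (-0.024), Hnrnpa1 (-0.080) and Srsf3 (-0.205). On the poly-A scale they were U2af1 (-0.264), Sf3b5 (-0.235), Hnrnpc (-0.072), Hnrnpr (-0.094), Snrpg (-0.036), Snrpc (-0.149) and Casc3 (-0.033), and relative to TSA Srsf3 (-0.077). Butyrate differences of genes picked for another comparison turned as well. Among them on the hybridization control scale were Srsf11 (-0.302), Hnrnpd (-0.318), Snrpa1 (-0.327), Snrpd3 (-0.206), Rbm17 (-0.101) and Rbm28 (-0.155). The mean of probe sets turned Snrpd3 with TSA to -0.032. These scales shift whole arrays by construction, and which is right was not tested. The share of all genes tested that was called moved to 25.8% (TSA) and 36.0% (butyrate) on the poly-A scale, to 81.8% for butyrate minus TSA on the hybridization control scale, and to 76.0% (TSA) and 59.5% (butyrate minus TSA) among genes above the median level.

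Leaving out each array in turn gave 26 to 30 rises and 16 to 21 falls with TSA, 14 to 17 and 29 to 34 with butyrate, and 2 to 4 and 28 to 38 for butyrate minus TSA. Of 810 refitted values of named genes, 780 stayed on the same side of the threshold, 28 lost the call and 2 gained it. No called difference changed sign, while 4 differences that were not called did (Sf3a1 and Sf3b2 with TSA, U2af1 and Sf3a2 with butyrate). Same-numbered arrays did not deviate together (2 of 9 correlations over 0.1, range -0.12 to 0.21), so the numbers were not taken as pairs. A replicate block gave 28 rises and 19 falls with TSA, 16 and 32 with butyrate, and 3 and 34 for butyrate minus TSA. Under the block the butyrate calls of Snrpc (adjusted p = 0.0644) and Rbm42 (adjusted p = 0.0562) were lost. Values near the RMA floor understate changes.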
